A study of Mus musculus with 27 samples.

Results

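The HDAC3 knockdown of Ba/F3 cells was set against the STAT5A and STAT5B knockdowns, pooled as 1 arm, in cells stimulated with interleukin 3 (IL3). The comparison rests on 9 of the 27 libraries of the series, chosen by their titles: 3 HDAC3 knockdown libraries (shHDAC3plus) and 6 STAT5 knockdown libraries, of which 3 carried the STAT5A hairpin (shSTAT5Aplus) and 3 the STAT5B hairpin (shSTAT5Bplus). Ba/F3 is an IL3-dependent mouse cell line that the labels call pro-B. All 9 cultures had received a lentiviral short hairpin and puromycin selection, were deprived of IL3 for 6 h, and were then given 10 ng per mL IL3 for 30 min before polyA RNA was sequenced. The 5 libraries with a no-target hairpin (shNTplus) went through the same steps. The 10 wild-type libraries received no hairpin, 5 of them being taken after the IL3 pulse (wtBaFplus) and 5 after deprivation alone (wtBaFminus); like the 3 LSD1 knockdown libraries (shLSD1plus), they entered the shared estimate of the spread. How many hairpins were used per gene, and whether a culture was a pool or a clone, is not given in the sources used here.

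HDAC3 is a histone deacetylase that works inside NCoR co-repressor complexes, where it removes acetyl groups from histone tails. STAT5A and STAT5B are a pair of closely related transcription factors that JAK2 phosphorylates at the IL3 receptor and that then bind motifs of the type TTCNNNGAA at genes such as Cish, Socs3 and Pim1. Both arms are knockdowns, so a gene can differ between them because either arm departs from the no-target cells, and the no-target values are given beside the main genes for that reason. Levels are CPM, read counts per unit of library size on the usual CPM scale, with TMM library factors, and a log2 fold change is the HDAC3 knockdown over the pooled STAT5 knockdowns, with its standard error (SE). A gene is called higher or lower at a Benjamini-Hochberg adjusted p under 0.05 in edgeR's quasi-likelihood test.

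The 3 HDAC3 libraries held 7479975, 5479527 and 12181840 counted reads, and the 6 STAT5 libraries 8532274 to 22582921. HDAC3 replicates 1 and 2 had 17% and 19.8% of their reads outside genes, while HDAC3 replicate 3 had 9.46% and the STAT5 libraries had 8.7% to 12%. On the first principal component of the 9 libraries, which carried 44.6% of the variance, HDAC3 replicates 1 and 2 lay at 70.8 and 75.8, HDAC3 replicate 3 at -4.78 and the STAT5 libraries at -43.6 to -6.64. Of the no-target libraries, replicates 1 and 3 also had more than 13% of reads outside genes, and no STAT5 library did. Within this comparison that property and the knockdown cannot be told apart in HDAC3 replicates 1 and 2, so values for HDAC3 replicate 3 alone are given beside the main results.

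Defining transcripts of the B lineage were at or near 0 in these libraries. Pax5 and Rag1 were at 0 and Igll1 at 0.0592 CPM or less in each of the 9 libraries, and Ebf1 was at 0 in 8 of them and at 0.705 CPM in HDAC3 replicate 2. Cd79a, a chain of the B-cell receptor, was present at 27.9, 27.8 and 68.2 CPM in the HDAC3 libraries, against 36.1 to 58.5 CPM in the STAT5 libraries with a median of 45.7 CPM. The pan-leukocyte gene Ptprc ran at 294 to 490 CPM in the HDAC3 libraries and at 242 to 425 CPM in the STAT5 libraries. The 9 B-lineage markers that could be tested had a median log2 fold change of 0.15, and -0.10 in HDAC3 replicate 3.

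In total 2131 of 12073 genes (17.7%) were called, 1328 of them higher (11%) and 803 lower (6.65%) in the HDAC3 knockdown. The shares of 11% and 6.65% over all genes are the ones to set beside the list counts below. The higher genes differed less in HDAC3 replicate 3 than over the 3 libraries. The 1328 higher genes had a median log2 fold change of 0.92 over the 3 libraries and of 0.25 in HDAC3 replicate 3, while the 803 lower genes had medians of -0.77 and -0.51. HDAC3 replicate 3 lay above all 6 STAT5 libraries for 649 of the 1328 higher genes and below all 6 for 572 of the 803 lower genes. Over all 12073 genes it lay outside the STAT5 range on the side of the fold change for 26.4%. Since HDAC3 replicate 3 also entered the calls and signs, its position is no separate check, here or in the lists below. With HDAC3 replicate 3 as the lone HDAC3 library, taken to vary like the other groups, 19 of 13173 genes (0.144%) were called, and all 19 were among the 2131. Leaving out HDAC3 replicate 1, 2 or 3 gave 232 called genes (149 higher and 83 lower), 261 (164 and 97) or 4762 (2361 and 2401), and leaving out STAT5A replicate 3 or STAT5B replicate 2 gave 1334 or 1398. Whichever HDAC3 library was left out, 114 genes kept their call, 65 higher and 49 lower, and HDAC3 replicate 3 was outside the STAT5 range for 113 of them. The called genes described below that are among the 114 are B4galnt4, Gzmc, Alox5, Serpina3g, Usp17le, Zbtb16, Pik3cd, Hdac7, Itgae, Lfng, Txk, Nfatc2, Runx3, Dnmt1, Uhrf1, Rrm2 and Espl1 on the higher side and Hdac3, Prg2, Anxa3, Cebpe, Clec4e, Clec7a, Lyz2, Ms4a3, Fcnb, Tnfrsf26, Gadd45a, Nkx6-3, Gla, Irf7, Niacr1 and Slc7a11 on the lower side. Each of these also stayed called without any 1 of the 6 STAT5 libraries. Each other called gene named below lost its call when at least 1 HDAC3 library was left out.

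The targeted transcripts followed their labels. Hdac3 stood at 83.9, 46.0 and 44.8 CPM in the HDAC3 libraries, against a lowest value of 106, a median of 133 and a highest value of 144 CPM in the STAT5 libraries. The groups did not overlap, and the log2 fold change was -1.16 ± 0.18 (SE, adjusted p = 0.0014, edgeR), with -1.54 in HDAC3 replicate 3 alone (adjusted p = 0.00494). HDAC3 replicate 1 kept the most Hdac3 transcript.

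Each STAT5 transcript was lowest in the libraries with its own hairpin, so the pooled arm joins 2 different partial losses. Stat5a, which the annotation places at chr11:100859351-100885169 on the plus strand (GRCm38), was at 78.5, 67.1 and 62.6 CPM in the HDAC3 libraries, at 26.7, 27.5 and 23.7 CPM in the STAT5A libraries and at 61.7, 89.8 and 75.0 CPM in the STAT5B libraries. Stat5b, at chr11:100780731-100850724 on the minus strand, was at 149, 127 and 98.0 CPM in the HDAC3 libraries, at 87.9, 89.6 and 87.5 CPM in the STAT5A libraries and at 33.7, 29.3 and 36.0 CPM in the STAT5B libraries. Against the pooled arm Stat5b was higher in the HDAC3 knockdown, with a log2 fold change of 1.04 ± 0.27 (SE, adjusted p = 0.0152, edgeR). Stat5a, which the 3 STAT5B libraries kept, had a log2 fold change of 0.45 ± 0.30 (SE, adjusted p = 0.275). Between the STAT5A and the STAT5B libraries the log2 fold change was -1.54 for Stat5a and 1.42 for Stat5b (adjusted p = 0.000222 for each, edgeR). These and Vps26b, a retromer subunit gene higher in the STAT5A libraries by 0.69 on the log2 scale (adjusted p = 0.011) and named after its value was seen, were the 3 genes of 12073 (0.0248%) called between the hairpins. Stat5a overlaps Stat3 on the other strand. Kdm1a, which encodes LSD1, had a log2 fold change of 0.04 ± 0.13 (SE, adjusted p = 0.838).

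**Figure D1:**
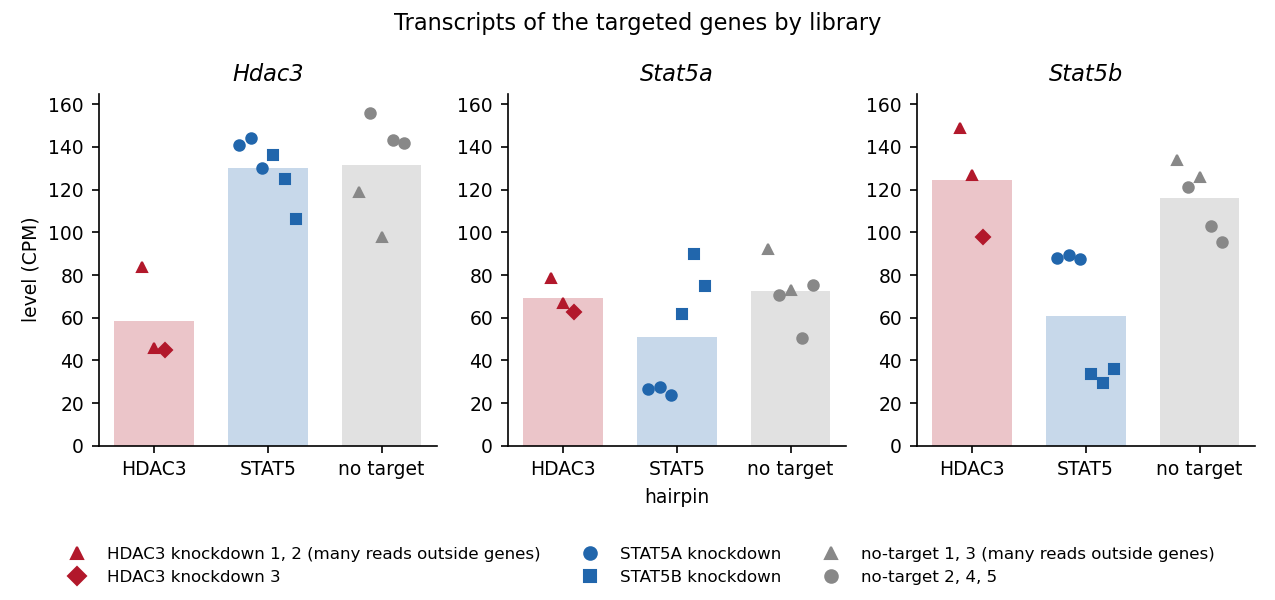
Levels of Hdac3, Stat5a and Stat5b in CPM, 1 point per library, with HDAC3 knockdown on the left, the pooled STAT5 knockdowns in the middle and no-target on the right; bars are group means. Hdac3 is lowest in the HDAC3 libraries (44.8 to 83.9 CPM), and each STAT5 transcript is lowest in the libraries with its own hairpin.

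Among called genes with a mean of at least 5 CPM in the higher arm and no overlap between the arms, the 12 largest falls included the eosinophil granule genes Prg2, Prg3, Epx and Ear6 and the neutrophil genes Ngp, S100a9 and Anxa3. The no-overlap limit puts HDAC3 replicate 3 below every STAT5 library for each of them, so that position is no separate check. Prg2 (chr2:84980461-84983632, plus strand), which encodes eosinophil major basic protein, was at 18.7, 24.5 and 9.84 CPM in the HDAC3 libraries, against a lowest of 608, a median of 856 and a highest of 2300 CPM in the STAT5 libraries. Every HDAC3 library was far below every STAT5 library. The log2 fold change was -5.90 ± 1.03 (SE, adjusted p = 0.00255, edgeR), and -6.74 in HDAC3 replicate 3. No-target libraries lay between the arms, at 46.6 to 496 CPM, and neither arm passed the threshold against them, with log2 fold changes of -3.32 for HDAC3 against no-target (adjusted p = 0.408) and 2.58 for STAT5 against no-target (adjusted p = 0.107).

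The related gene Prg3 (chr2:84988215-84993886, plus strand), a homologue of major basic protein, was at 0.62, 2.64 and 0.879 CPM in the HDAC3 libraries and at 23.1, 39.6 and 77.1 CPM as lowest, median and highest in the STAT5 libraries. Its log2 fold change was -5.18 ± 1.11 (SE, adjusted p = 0.0065). Epx (chr11:87864000-87875536, minus strand), eosinophil peroxidase, was at 20.1, 53.2 and 6.24 CPM in the HDAC3 libraries, against 234, 286 and 1250 CPM as lowest, median and highest in the STAT5 libraries. HDAC3 replicate 3 was the lowest of the 3 for Epx, where the log2 fold change was -4.24 ± 1.01 (SE, adjusted p = 0.0102) and -6.32 in replicate 3. Ear6, an eosinophil-associated ribonuclease, was at 1.12, 2.29 and 0.791 CPM in the HDAC3 libraries and at 6.36 to 125 CPM in the STAT5 libraries (log2 fold change -4.92 ± 1.25 SE, adjusted p = 0.0132). Ear6 has near-identical family members, so the assignment of its reads is uncertain.

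Of 16 tested markers of mast cells, basophils and eosinophils, 5 were lower (31.2%, beside 6.65% of all genes). They were the 4 genes above and Hdc, the histidine decarboxylase that makes histamine. HDAC3 replicate 3 was below every STAT5 library for all 5, which for the 4 was a condition of their choice. Hdc ran at 3.87 to 8.46 CPM in the HDAC3 libraries and at 7.38 to 224 CPM in the STAT5 libraries, with a median of 51.6 CPM there, and its log2 fold change was -3.76 ± 1.00 (SE, adjusted p = 0.0159); it was picked out after its values were seen. The list's median log2 fold change was -2.40, and -2.60 in HDAC3 replicate 3, beside -0.01 and -0.05 over all 12073 genes. Leaving out HDAC3 replicate 1, 2 or 3 left 1, 3 or 5 of the list called lower. The summed level of the markers was 582 to 1610 CPM in the HDAC3 libraries, 1730 to 4530 CPM in the STAT5 libraries and 720 to 1650 CPM in the no-target libraries. Kit was at 0.352 CPM or less and Fcer1a at 0.0592 CPM or less in the 9 libraries, so these mast-cell receptor transcripts were at or near 0. Mast-cell carboxypeptidase Cpa3 did not pass, at 2.73, 5.11 and 8.87 CPM in the HDAC3 libraries and 5.64 to 40.1 CPM in the STAT5 libraries (adjusted p = 0.132).

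Among neutrophil and monocyte genes, 14 of 24 tested markers were lower (58.3%, beside 6.65% of all genes). HDAC3 replicate 3 was below all STAT5 libraries for 13 of these. Ngp (chr9:110419747-110423012, plus strand), a neutrophil granule protein, was at 1.98, 5.28 and 1.23 CPM in the HDAC3 libraries, against 15.8, 154 and 1100 CPM as lowest, median and highest in the STAT5 libraries. The groups were apart although the STAT5 libraries themselves spanned a wide range, and the log2 fold change was -6.82 ± 1.84 (SE, adjusted p = 0.0169). Mpo, myeloperoxidase, was at 20.0, 5.99 and 2.72 CPM in the HDAC3 libraries and at 23.1, 91.7 and 369 CPM as lowest, median and highest in the STAT5 libraries (log2 fold change -3.81 ± 1.09 SE, adjusted p = 0.022). Prtn3, proteinase 3 of the azurophil granule, was at 11.8, 15.7 and 14.0 CPM in the HDAC3 libraries, below the 24.9 to 119 CPM of the STAT5 libraries (log2 fold change -2.17 ± 0.54 SE, adjusted p = 0.0124). Mpo and Prtn3 were named after their values were seen, and both share exon positions with a transcript on the other strand. The neutrophil elastase and cathepsin G genes, Elane and Ctsg, did not pass (adjusted p = 0.0593 and 0.0806).

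Several of these genes were nearly absent from the HDAC3 libraries. Anxa3, an annexin of neutrophil granules, had 1 read in the 3 HDAC3 libraries and 1492 in the 6 STAT5 libraries, a depth-corrected ratio of 0.0025 with a 95% counting interval of 6.32e-05 to 0.0139. Cd14, the monocyte co-receptor for bacterial lipopolysaccharide, had 3 reads and 1191 reads, a ratio of 0.00938 with an interval of 0.00193 to 0.0275. Both intervals cover counting error only, and for Cd14 most STAT5 reads came from STAT5A replicate 3, at 42.7 CPM, with 0.237 to 11.9 CPM in the other STAT5 libraries. Anxa3 overlaps a second transcript on its own strand. S100a9, a calprotectin subunit, was at 0, 2.29 and 0.615 CPM in the HDAC3 libraries and at 5.03 to 97.1 CPM in the STAT5 libraries (log2 fold change -5.10 ± 1.77 SE, adjusted p = 0.0469).

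Cebpe (chr14:54710360-54712174, minus strand), the transcription factor that drives granule genes late in granulocyte maturation, was at 34.9, 30.3 and 33.2 CPM in the HDAC3 libraries, which were almost identical. The STAT5 libraries held 75.2, 148 and 404 CPM as lowest, median and highest, and the log2 fold change was -2.51 ± 0.49 (SE, adjusted p = 0.00453), with -2.5 in HDAC3 replicate 3. Spi1, which encodes PU.1, a master factor of the myeloid lineage, ran at 38.2 to 72.9 CPM in the HDAC3 libraries and 91.3 to 206 CPM in the STAT5 libraries (log2 fold change -1.31 ± 0.28 SE, adjusted p = 0.00614); it too was picked out after its values were seen. Clec4e, the receptor Mincle, was at 84.5, 95.5 and 102 CPM in the HDAC3 libraries and at 134, 272 and 446 CPM as lowest, median and highest in the STAT5 libraries (log2 fold change -1.54 ± 0.26 SE, adjusted p = 0.00248). Ms4a3, a membrane protein gene of granulocyte progenitors, was at 32.5, 64.3 and 36.9 CPM in the HDAC3 libraries and at 190, 270 and 698 CPM as lowest, median and highest in the STAT5 libraries (log2 fold change -2.91 ± 0.53 SE, adjusted p = 0.00351), and it was named after its values were seen. Lyz2, lysozyme, was at 4.59, 2.11 and 2.64 CPM in the HDAC3 libraries, below the 6.96 to 15.4 CPM of the STAT5 libraries (log2 fold change -1.70 ± 0.34 SE, adjusted p = 0.00493).

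Cebpe, Clec4e, Lyz2, Anxa3 and Clec7a, which encodes the beta-glucan receptor Dectin-1, were the 5 of the 24 markers whose call held whichever HDAC3 library was left out, while leaving out HDAC3 replicate 1, 2 or 3 gave 5, 7 or 15 called lower. The myeloid list had a median log2 fold change of -2.16, and -2.20 in HDAC3 replicate 3. Its summed level was 629 to 1650 CPM in the HDAC3 libraries, 1560 to 3460 CPM in the STAT5 libraries and 726 to 1840 CPM in the no-target libraries. The receptors Csf1r, Itgam and Csf3r, which mark mature monocytes and granulocytes, were at 0.756 CPM or less in all 9 libraries. In bulk RNA, fewer cells of a type and less RNA per cell cannot be told apart. Between the STAT5 knockdowns and the no-target cells 17 of 12073 genes (0.141%) were called, and Anxa3 and Clec4e were among them, higher in the STAT5 knockdowns (log2 fold changes 4.95 and 1.10, adjusted p = 0.022 and 0.0394). Fcnb, the lectin ficolin B of neutrophils, was another (3.18, adjusted p = 0.0394), at 0 to 0.352 CPM in the HDAC3 libraries and 1.09 to 6.09 CPM in the STAT5 libraries, and was named after its values were seen. Against the same no-target libraries the HDAC3 knockdown gave -0.43 for Clec4e and -1.37 for Fcnb (adjusted p = 0.853 and 0.86). Both contrasts use the 5 no-target libraries.

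**Figure D2:**
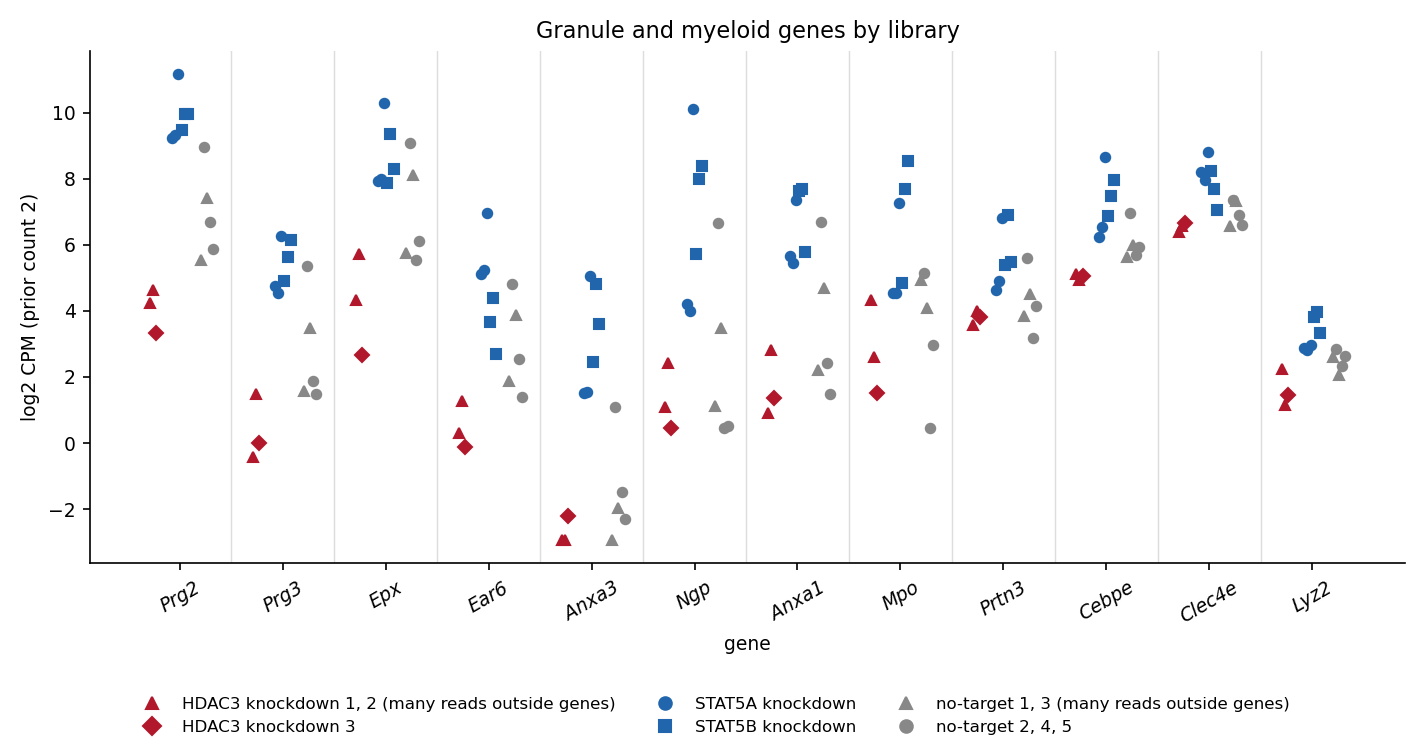
Levels of 12 granule and myeloid genes as log2 CPM with a prior count of 2, 1 point per library, with HDAC3 libraries left, STAT5 libraries in the middle and no-target libraries right in each column. All 3 HDAC3 libraries lie below all 6 STAT5 libraries for each gene drawn. The no-target libraries lie between the arms for Prg2, at 46.6 to 496 CPM, but not for every gene. For Ngp they run from 0.459 to 6.653 log2 CPM and overlap both arms.

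Other large falls were outside the granule group, though several of these genes are also made by myeloid cells. Anxa1, an annexin that restrains inflammation, was at 1.74, 6.87 and 2.46 CPM in the HDAC3 libraries and at 44.0, 109 and 206 CPM as lowest, median and highest in the STAT5 libraries (log2 fold change -5.10 ± 1.29 SE, adjusted p = 0.0131). Prkch, protein kinase C eta, was at 0.62, 2.47 and 0.527 CPM in the HDAC3 libraries and at 5.04 to 56.2 CPM in the STAT5 libraries (log2 fold change -4.70 ± 1.11 SE, adjusted p = 0.01). Xdh, xanthine dehydrogenase, was at 0, 1.23 and 0.0879 CPM in the HDAC3 libraries, against 3.32 to 12.9 CPM in the STAT5 libraries. It was also called between the STAT5 knockdowns and no-target cells, with a log2 fold change of 3.93 (adjusted p = 0.0394). The protease inhibitor Slpi and the chemokine Ccl6 completed these 12 falls, with log2 fold changes of -4.91 and -4.18. Tnfrsf26, a member of the tumour necrosis factor receptor family, was at 2.85, 5.64 and 3.87 CPM in the HDAC3 libraries and at 27, 44.4 and 103 CPM as lowest, median and highest in the STAT5 libraries (log2 fold change -3.68 ± 0.63 SE, adjusted p = 0.00248), and was named after its values were seen.

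In every alternative that kept the 3 HDAC3 libraries, 66 genes stayed called. The 6 of these with the smallest adjusted p were Hdac3, Gadd45a and Nkx6-3, lower, and B4galnt4, Uhrf1 and Pik3cd, higher. Gadd45a (chr6:67035096-67037457, minus strand), a stress and growth-arrest gene, was at 9.92, 12.3 and 11.3 CPM in the HDAC3 libraries and at 41.9, 49.2 and 124 CPM as lowest, median and highest in the STAT5 libraries. The HDAC3 libraries hardly differed from each other, and the log2 fold change was -2.49 ± 0.34 (SE, adjusted p = 0.000743), with -2.48 in HDAC3 replicate 3 (adjusted p = 0.0952). No-target libraries held 12.7 to 26.7 CPM, and the STAT5 knockdowns were higher than these (log2 fold change 1.53, adjusted p = 0.022). Its exons overlap those of a non-coding transcript on the other strand. Nkx6-3, a homeobox gene, was at 0.868, 0.881 and 0.879 CPM in the HDAC3 libraries, against 3.00, 4.73 and 6.33 CPM in the STAT5 libraries as lowest, median and highest (log2 fold change -2.40 ± 0.36 SE, adjusted p = 0.0014).

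On the higher side, B4galnt4 had the smallest adjusted p of all genes tested. This gene (chr7:141061104-141072400, plus strand) encodes a glycosyltransferase that adds N-acetylgalactosamine to protein glycans. It was at 16.6, 14.1 and 14.8 CPM in the HDAC3 libraries and at 2.98, 4.44 and 5.11 CPM as lowest, median and highest in the STAT5 libraries. The groups were well apart, with a log2 fold change of 1.88 ± 0.18 (SE, adjusted p = 1.42e-06), and HDAC3 replicate 3 alone gave 1.84 (adjusted p = 0.000828). The no-target libraries held 8.43 to 14.6 CPM, and the STAT5 knockdowns were lower than these (log2 fold change -1.47, adjusted p = 1.99e-05), while the HDAC3 knockdown was not called against them (0.40, adjusted p = 0.846).

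Pik3cd (chr4:149649168-149702571, minus strand), the delta catalytic subunit of phosphoinositide 3-kinase of leukocytes, was at 184, 316 and 372 CPM in the HDAC3 libraries and at 76.0, 94.8 and 159 CPM as lowest, median and highest in the STAT5 libraries. HDAC3 replicate 3 was the highest of the 9, and the log2 fold change was 1.45 ± 0.21 (SE, adjusted p = 0.000869), with 1.80 in replicate 3 (adjusted p = 0.000828). Uhrf1, which guides maintenance methylation of DNA after replication, was at 442, 373 and 391 CPM in the HDAC3 libraries and at 173, 205 and 225 CPM in the STAT5 libraries as lowest, median and highest. The log2 fold change was 0.97 ± 0.14 (SE, adjusted p = 0.000857), and 0.92 in replicate 3 (adjusted p = 0.0795). Dnmt1, the maintenance DNA methyltransferase that UHRF1 recruits, was at 914, 906 and 725 CPM in the HDAC3 libraries, above the 304 to 525 CPM of the STAT5 libraries (log2 fold change 0.96 ± 0.18 SE, adjusted p = 0.00389). It was named after its values were seen, and no-target replicates 1 and 3 held 738 and 862 CPM against 460 to 564 CPM in the other no-target libraries.

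The granzyme genes Gzmb and Gzmc were higher in the HDAC3 knockdown, most of all in replicates 2 and 3. Gzmb (chr14:56258838-56262260, minus strand), which encodes granzyme B, was at 169, 866 and 1120 CPM in the HDAC3 libraries and at 3.12, 85.2 and 194 CPM as lowest, median and highest in the STAT5 libraries. HDAC3 replicate 1 lay within the STAT5 range and the other two lay above it. The log2 fold change was 3.05 ± 0.90 (SE, adjusted p = 0.0243), with 3.70 in replicate 3 (adjusted p = 0.272). Against no-target libraries, which held 1.54 to 26.6 CPM, the HDAC3 knockdown was higher by 6.35 on the log2 scale (adjusted p = 0.0202), making Gzmb 1 of 3 genes (0.0248% of 12073) called in that contrast, with Gzmc and Hdac3. The STAT5 knockdowns against no-target gave 3.30 (adjusted p = 0.123).

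Gzmc (chr14:56231441-56234656, minus strand), granzyme C, was at 0.372, 15.0 and 9.66 CPM in the HDAC3 libraries and at 0.651 CPM or less in the STAT5 libraries. Its log2 fold change was 5.14 ± 0.88 (SE, adjusted p = 0.00364), and 5.36 in replicate 3 (adjusted p = 0.0245). With DESeq2 it lost its call (log2 fold change 5.15, adjusted p = 0.0692). Cd3g, a chain of the T-cell receptor complex, was at 1.98, 1.94 and 6.85 CPM in the HDAC3 libraries, above the 0.0945 to 0.879 CPM of the STAT5 libraries (log2 fold change 2.87 ± 0.69 SE, adjusted p = 0.0111). Of 6 tested T and NK cell markers 2 were called, Cd3g and Gzmb, both higher (33.3%, beside 11% of all genes). The summed level of the list was 176 to 1150 CPM in the HDAC3 libraries, 10.4 to 208 CPM in the STAT5 libraries and 8.62 to 35.3 CPM in the no-target libraries. In the HDAC3 libraries nearly all of it was Gzmb, whose call ended without HDAC3 replicate 1 (log2 fold change 3.52, adjusted p = 0.0525) or 2 (2.89, adjusted p = 0.101). Cd3e and Cd4 were at 0.176 CPM or less, Ncr1 was at 0 in all 9 libraries, and Lck was at 1.36 to 3.78 CPM in the HDAC3 libraries and 1.56 to 2.93 CPM in the STAT5 libraries.

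With HDAC3 replicate 3 alone, 17 genes were called higher and 2 lower, Hdac3 and Zrsr1. The genes of this paragraph were named after those values were seen. Itgae, the alpha E integrin that binds E-cadherin, was at 8.81, 13.6 and 34.0 CPM in the HDAC3 libraries and at 5.76, 7.23 and 9.14 CPM as lowest, median and highest in the STAT5 libraries. Replicate 1 fell within the STAT5 range, and the log2 fold change was 1.37 ± 0.26 (SE, adjusted p = 0.00389), with 2.21 in replicate 3 (adjusted p = 2.48e-05). Lfng, a glycosyltransferase that modifies Notch receptors, was at 26.3, 30.3 and 57.3 CPM in the HDAC3 libraries, above the 11.8 to 20.8 CPM of all STAT5 libraries (log2 fold change 1.31 ± 0.21 SE, adjusted p = 0.00169). Lat2, a membrane adaptor of immune-receptor signalling, was at 2.61, 19.7 and 56.8 CPM in the HDAC3 libraries and at 2.31 to 6.37 CPM in the STAT5 libraries. Txk, a TEC-family kinase, was at 14.8, 12.9 and 25 CPM in the HDAC3 libraries, above the 4.08 to 11 CPM of the STAT5 libraries. Csk, the kinase that switches off SRC-family kinases, was at 233, 282 and 500 CPM in the HDAC3 libraries and at 212 to 262 CPM in the STAT5 libraries. Alox5, 5-lipoxygenase, was at 1.36, 38.8 and 58.8 CPM in the HDAC3 libraries and at 0.586 to 3.27 CPM in the STAT5 libraries. Ptgs1, cyclooxygenase 1, was at 157, 285 and 359 CPM in the HDAC3 libraries and at 88.5 to 186 CPM in the STAT5 libraries. For Itgae, Lat2, Csk, Alox5, Gzmc and Ptgs1, HDAC3 replicate 1 lay inside the STAT5 range, and the values of replicates 2 and 3 were above it.

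The transcription factor genes Runx3 and Nfatc2, both active in T cells, were also higher and were named after their values were seen. Runx3 was at 63.6, 55.5 and 53.1 CPM in the HDAC3 libraries and at 18.1, 23.2 and 36.1 CPM as lowest, median and highest in the STAT5 libraries (log2 fold change 1.15 ± 0.22 SE, adjusted p = 0.00406, and 1.04 in replicate 3). Nfatc2 was at 57.2, 80.7 and 52.3 CPM in the HDAC3 libraries and at 24.5, 26.9 and 33.3 CPM as lowest, median and highest in the STAT5 libraries (log2 fold change 1.2 ± 0.19 SE, adjusted p = 0.00185, and 0.92 in replicate 3). For both genes the 3 HDAC3 libraries lay above the 6 STAT5 libraries, and the no-target libraries held 31.9 to 57.6 CPM of Runx3 and 30.9 to 55.6 CPM of Nfatc2.

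**Figure D3:**
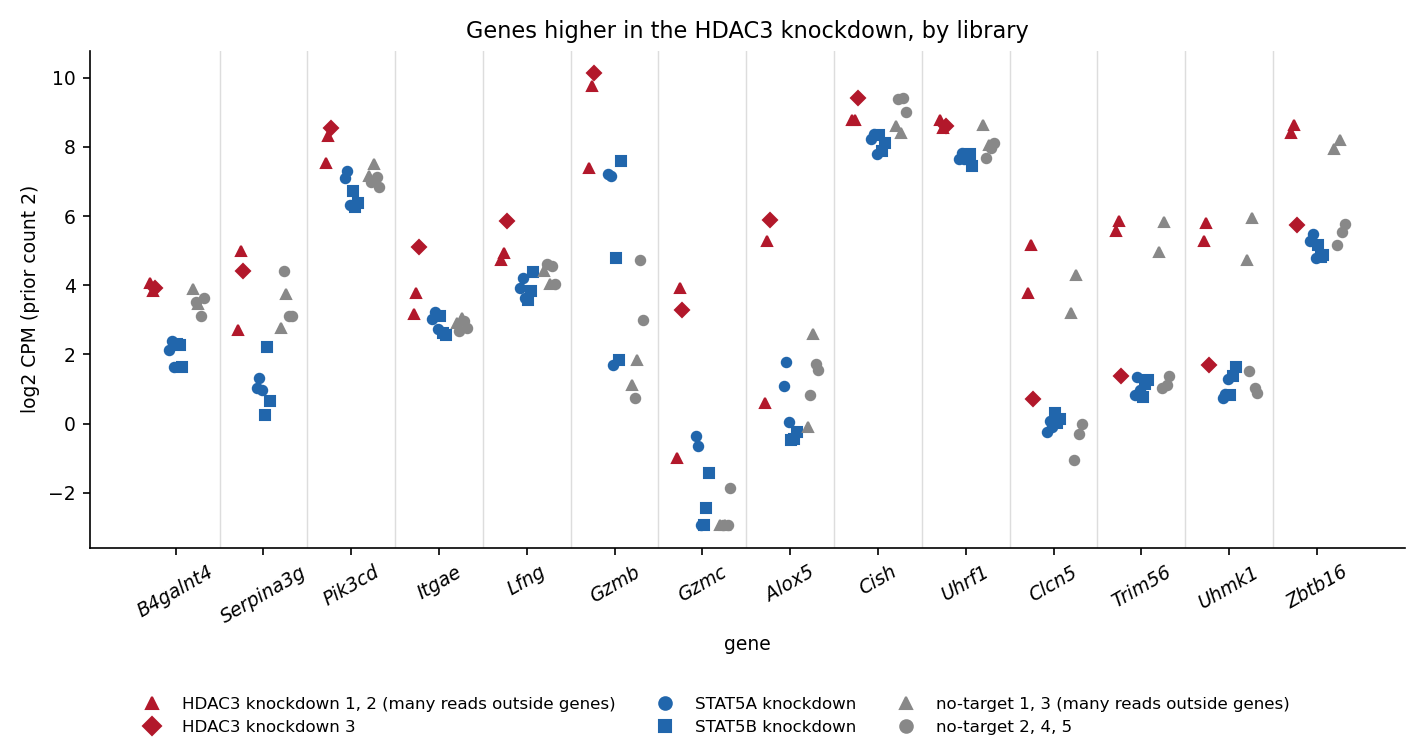
Levels of 14 genes called higher in the HDAC3 knockdown, as log2 CPM with a prior count of 2, drawn with HDAC3 libraries left, STAT5 libraries in the middle and no-target libraries right in each column. For B4galnt4, Lfng, Cish and Uhrf1 all 3 HDAC3 libraries lie above the STAT5 libraries, whereas for Clcn5, Trim56, Uhmk1 and Zbtb16 HDAC3 replicates 1 and 2 and no-target replicates 1 and 3 are high together.

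Known STAT5 targets were set out from a list of 25 genes, of which 21 could be tested. Of these 5 were called (23.8%, beside 11% of all genes), all higher in the HDAC3 knockdown: Cish, Socs3, Pim1, Lta and Gzmb. Cish (chr9:107296026-107302784, plus strand), the feedback inhibitor that STAT5 induces at cytokine receptors, was at 438, 436 and 680 CPM in the HDAC3 libraries and at 220, 288 and 333 CPM as lowest, median and highest in the STAT5 libraries. The groups did not overlap, with a log2 fold change of 0.88 ± 0.27 (SE, adjusted p = 0.0273) and 1.27 in replicate 3 (adjusted p = 0.262). The no-target libraries held 338 to 686 CPM, with a log2 fold change of 0 for HDAC3 against no-target and of -0.88 for STAT5 against no-target (adjusted p = 0.999 and 0.107). Cish overlaps 2 transcripts on the other strand.

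The other members of the list varied more. Socs3, another feedback inhibitor, was at 673, 111 and 142 CPM in the HDAC3 libraries, and at 45.4, 58.4 and 216 CPM in the STAT5B libraries and 46.0, 50 and 41.9 CPM in the STAT5A libraries. STAT5B replicate 3 was above 2 of the HDAC3 libraries, and the log2 fold change was 2.03 ± 0.56 (SE, adjusted p = 0.0185) with 0.90 in replicate 3 (adjusted p = 0.854). Socs1 behaved likewise in STAT5B replicate 3, at 305 CPM, and did not pass (125, 106 and 217 CPM in the HDAC3 libraries, a median of 60.1 CPM in the STAT5 libraries, adjusted p = 0.335). Pim1, a survival kinase, was at 676, 647 and 347 CPM in the HDAC3 libraries and at 201 to 384 CPM in the STAT5 libraries (log2 fold change 1.06 ± 0.28 SE, adjusted p = 0.015), and replicate 3 lay within the STAT5 range. Lta, the cytokine lymphotoxin alpha, was low in both arms, at 0.62, 2.99 and 2.64 CPM in the HDAC3 libraries and 0.165 to 0.592 CPM in the STAT5 libraries (log2 fold change 2.81 ± 0.69 SE, adjusted p = 0.0118). Myc did not pass (adjusted p = 0.0514). The 21 genes had a median log2 fold change of 0.68, and 0.40 in HDAC3 replicate 3, and leaving out HDAC3 replicate 1, 2 or 3 gave 1, 1 or 7 called higher.

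To show what sequence lies at such starts, the promoters of 3 of these IL3-responsive genes are printed from RefSeq (GRCm38.p6), 5′ to 3′ on the gene's strand, with each TTCNNNGAA match in capitals. The 3 were chosen by hand and each holds a match, so they do not stand for the other genes. For Serpina3g (chr12:104235897-104236146, plus strand) and Socs3 (chr11:117969367-117969616, minus strand) the 250 bases before RefSeq's start are given, and for Cish 24 bases around RefSeq's start (chr9:107296657-107296680, plus strand), which hold 2 matches. In the GENCODE annotation the Socs3 and Cish stretches lie inside the gene, downstream of its annotated start.
Serpina3g: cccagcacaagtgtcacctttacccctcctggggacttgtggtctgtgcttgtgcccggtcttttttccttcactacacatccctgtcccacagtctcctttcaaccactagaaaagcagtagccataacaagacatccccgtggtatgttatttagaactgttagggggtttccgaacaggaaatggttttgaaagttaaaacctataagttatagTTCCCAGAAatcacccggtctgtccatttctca
Socs3: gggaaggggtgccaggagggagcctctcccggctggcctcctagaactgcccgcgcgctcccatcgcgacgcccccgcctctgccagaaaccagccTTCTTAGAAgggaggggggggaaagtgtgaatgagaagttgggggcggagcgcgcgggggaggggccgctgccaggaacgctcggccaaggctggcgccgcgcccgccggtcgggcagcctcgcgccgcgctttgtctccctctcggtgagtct
Cish: ttTTCCTGGAAagTTCTTGGAAat
The motif reads the same on both strands, and its matches begin 33 bases before the start of Serpina3g and 154 bases before that of Socs3. It was found in 9.55% of 27025 promoters in a window of 250 bases before to 50 after the start, longer than the stretches printed, and in 8.55% of the 8999 tested genes with a promoter in the table. A match is a description of the letters and not evidence of binding.

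Serpina3g, a serine protease inhibitor of activated lymphocytes, was the IL3-induced gene with the smallest adjusted p. It was at 6.33, 31.9 and 21.1 CPM in the HDAC3 libraries and at 1.05, 1.87 and 4.51 CPM as lowest, median and highest in the STAT5 libraries. All HDAC3 libraries were above all STAT5 libraries, with a log2 fold change of 3.15 ± 0.50 (SE, adjusted p = 0.00169) and 3.25 in replicate 3 (adjusted p = 0.0166). The STAT5 knockdowns were lower than the no-target libraries (log2 fold change -2.38, adjusted p = 0.0394), which held 6.62 to 21.0 CPM. In wild-type cells IL3 raised it by 2.14 on the log2 scale (adjusted p = 0.00558). Serpina3g belongs to a cluster of near-identical serpins, so its reads may be shared with other members.

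The IL3-induced set was taken from the wild-type libraries, where 488 of 12073 genes (4.04%) were called between stimulated and deprived cells and 225 rose at least 2-fold. In the HDAC3 knockdown against the STAT5 knockdowns, 32 of the 225 were higher (14.2%, beside 11% of all genes) and 5 lower (2.22%, beside 6.65%), with a median log2 fold change of 0.24 that came to 0.02 in HDAC3 replicate 3. Leaving out HDAC3 replicate 1, 2 or 3 gave 4, 7 or 46 called higher. The mean log2 CPM of the set was 4.65, 4.33 and 4.20 in the HDAC3 libraries, 4.06 to 4.20 in the STAT5 libraries, 4.07 to 4.48 in the no-target libraries and 2.21 to 2.5 in the deprived wild-type libraries, where the stimulated ones held 3.87 to 4.56. Promoters of 21 of the 32 higher genes were in the table, and 6 of them (28.6%) held the motif, beside 16 of the 150 for the whole set (10.7%). The 21 are part of the 150, and the difference between these shares was not tested. Bhlhe40, a repressor of the helix-loop-helix class, was at 181, 266 and 299 CPM in the HDAC3 libraries and at 33.2 to 157 CPM in the STAT5 libraries (log2 fold change 1.46 ± 0.40 SE, adjusted p = 0.0173); it was named after its values were seen. Il6, the inflammatory cytokine interleukin 6, was at 195, 483 and 265 CPM in the HDAC3 libraries, above the 17.0 to 150 CPM of the STAT5 libraries (log2 fold change 2.33 ± 0.49 SE, adjusted p = 0.00603).

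The 5 IL3-induced genes that were lower were Trib1, Vmp1, Niacr1, Fam132a and Gm1123, all but Trib1 named after their values were seen. Trib1, a pseudokinase that directs the transcription factor C/EBP alpha to degradation, was at 2.85, 3.70 and 3.07 CPM in the HDAC3 libraries and at 11.8, 13.7 and 24.4 CPM as lowest, median and highest in the STAT5 libraries. The HDAC3 libraries sat close together below the others, with a log2 fold change of -2.32 ± 0.62 (SE, adjusted p = 0.0165). Of 41 IL3-repressed genes 4 were lower (9.76%, beside 6.65% of all genes), and the median log2 fold change was -0.32 and -0.08 in replicate 3. Of 34 tested immediate early genes, Csrnp1 was higher and Trib1 and Btg1 were lower (2.94% and 5.88%, beside 11% and 6.65% of all genes). Fos and Egr2, among the strongest IL3-induced genes in wild-type cells, read 95.1, 90.7 and 13.3 CPM and 153, 212 and 41.0 CPM in the HDAC3 libraries, with STAT5 medians of 38.0 and 97.6 CPM (adjusted p = 0.564 and 0.408).

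Upstream of these targets, 4 of 17 tested genes of the IL3 receptor, JAK and STAT group were higher (23.5%): Stat5b, Ptpn11, Jak3 and Jak1. The receptor-linked phosphatase gene Ptpn11, which encodes SHP2, was at 185, 180 and 103 CPM in the HDAC3 libraries and at 55.9 to 92.3 CPM in the STAT5 libraries (log2 fold change 0.94 ± 0.23 SE, adjusted p = 0.0118). No-target replicates 1 and 3 held 142 and 157 CPM and the other no-target libraries 82.6 to 92.6 CPM, the same split as between HDAC3 replicates 1 and 2 and replicate 3. Jak1 and Jak3, kinases of cytokine receptors, had log2 fold changes of 0.49 and 0.63 (adjusted p = 0.0334 and 0.0185), and 0.20 and 0.34 in replicate 3. The calls of this group ended without HDAC3 replicate 1 or without replicate 2, where 4 and 3 genes were higher at an unadjusted p under 0.05 (edgeR).

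The partners of HDAC3 were looked at next. In the NCoR complex, the co-repressor scaffold gene Ncor1 and Tbl1x, which encodes the subunit TBL1X, were higher, beside the lower Hdac3. Ncor1 was at 351, 442 and 153 CPM and Tbl1x at 44.9, 76.1 and 13.1 CPM in the HDAC3 libraries, where replicate 3 lay within the STAT5 ranges of 153 to 173 CPM and 7.08 to 13.7 CPM. No-target replicates 1 and 3 gave 287 to 441 CPM for Ncor1, and the other no-target libraries 148 to 157 CPM.

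Of the other class I and II deacetylases, Hdac7 and Hdac4 were higher, 2 of the 9 tested histone deacetylase genes (22.2%). Hdac7 (chr15:97792664-97844502, minus strand), a class IIa enzyme of lymphocytes that binds the NCoR complex, was at 516, 477 and 481 CPM in the HDAC3 libraries and at 137, 180 and 207 CPM as lowest, median and highest in the STAT5 libraries. The HDAC3 libraries were alike and well above the others, with a log2 fold change of 1.49 ± 0.28 (SE, adjusted p = 0.00364) and 1.45 in replicate 3. Against no-target libraries, at 254 to 555 CPM, the STAT5 knockdowns were lower (log2 fold change -1.18, adjusted p = 0.0453) and the HDAC3 knockdown was not called (0.31, adjusted p = 0.868). Hdac7 overlaps Slc48a1 on the other strand. Hdac4, a class IIa relative, was at 17.7, 19.6 and 3.60 CPM in the HDAC3 libraries, and replicate 3 was just above the STAT5 maximum of 3.26 CPM. On the log2 CPM scale, no-target replicates 1 and 3 held 3.697 and 3.815 of Hdac4, and the other no-target libraries 1.152 to 1.69. The HDAC3 libraries held 4.159, 4.299 and 1.9 on that scale.

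Co-repressor genes of the HDAC1/2 and LSD1 complexes gave 6 higher of 19 (31.6%), but HDAC3 replicate 3 was above the STAT5 libraries for only 2 of the 6. Rcor1, which encodes CoREST, was at 90.4, 107 and 11.1 CPM in the HDAC3 libraries and at 4.92 to 15.2 CPM in the STAT5 libraries, while no-target replicates 1 and 3 held 74.4 and 127 CPM and the others 12.2 to 12.8 CPM. Chd4, the NuRD remodelling ATPase, was at 722, 895 and 478 CPM in the HDAC3 libraries and at 378 to 421 CPM in the STAT5 libraries (log2 fold change 0.79 ± 0.21 SE, adjusted p = 0.0146). These 6 calls ended without HDAC3 replicate 1 or without replicate 2, where 5 genes each were higher at an unadjusted p under 0.05 (edgeR).

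The same split marked most of the 12 largest rises, taken by the same limits on level and overlap. Trim56, an E3 ubiquitin ligase of innate immunity, was at 47.6, 58.0 and 2.46 CPM in the HDAC3 libraries, against 1.58, 1.96 and 2.43 CPM as lowest, median and highest in the STAT5 libraries. No-target replicates 1 and 3 were at 30.9 and 56.3 CPM, and the other no-target libraries at 1.90 to 2.45 CPM. The log2 fold change was 4.18 ± 0.94 (SE, adjusted p = 0.00827), but 0.32 in replicate 3 (adjusted p = 0.986), so the called rise was that of 2 libraries. Clcn5, a chloride transporter of endosomes, Uhmk1, a kinase that acts on splicing factors, Lmbrd2, Xpo4, a nuclear transport receptor, Ddi2 and Irs2, the insulin receptor substrate, followed that pattern, with log2 fold changes of 2.5 to 4.22 over the 3 libraries and of 0.37 to 0.89 in replicate 3. Zbtb16, which encodes the transcriptional repressor PLZF, was at 337, 394 and 52.9 CPM in the HDAC3 libraries and at 27.3 to 44.1 CPM in the STAT5 libraries, with 247 and 293 CPM in no-target replicates 1 and 3 and 35.9 to 54.7 CPM in the others. With a term in the fit for the 5 libraries with over 13% of reads outside genes, which was added after seeing the data, these 8 genes lost their calls, with log2 fold changes of 0.13 for Lmbrd2 to 0.72 for Zbtb16 (adjusted p from 0.075 for Zbtb16 to 0.918 for Lmbrd2). Syne3 and Fgf23, also among the 12 rises, lost theirs too (adjusted p = 0.0716 and 0.599, edgeR). Of the 12 largest falls, Prg2, Anxa3 and Xdh kept their calls with this term. The other falls lost theirs, with log2 fold changes of -5.74 for Ngp to -3.67 for Ccl6 (adjusted p from 0.0853 for Prkch to 0.36 for S100a9). The calls of Cebpe, Mpo, Gzmb, Dnmt1, Bcl2 and Irf7 also ended (adjusted p from 0.0527 for Dnmt1 to 0.11 for Mpo). Many other calls ended too, among them Stat5b, Socs3, Pim1, Il6, Bhlhe40, Spi1, Prtn3, Hdc, Ptpn11, Chd4, Srebf2, Mcm2 and Top2a. The ribosome biogenesis genes Rrp12, Tsr1, Ddx21 and Dkc1 likewise lost theirs. Adjusted p over these further genes ran from 0.0725 for Spi1 to 0.394 for Chd4 (edgeR). Cish, Uhrf1 and Rrm2 were among the genes that kept their calls.

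Of the 12 largest rises, Serpina3g and Usp17le were as high in replicate 3 as over the 3 libraries. Usp17le, a member of a family of cytokine-inducible deubiquitinases, was at 2.85, 3.70 and 8.61 CPM in the HDAC3 libraries and at 0 to 1.87 CPM in the STAT5 libraries (log2 fold change 2.90 ± 0.62 SE, adjusted p = 0.00694, and 3.64 in replicate 3). Its family is repeated and nearly identical, so the member is uncertain. Syne3, a nuclear envelope protein, lay between the patterns, at 85.6, 129 and 39.8 CPM in the HDAC3 libraries and at 8 to 24.4 CPM in the STAT5 libraries. Fgf23, a phosphate-regulating hormone gene, was at 57.9, 65.7 and 12.4 CPM in the HDAC3 libraries and spanned 0.12 to 12 CPM in the STAT5 libraries.

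**Figure D4:**
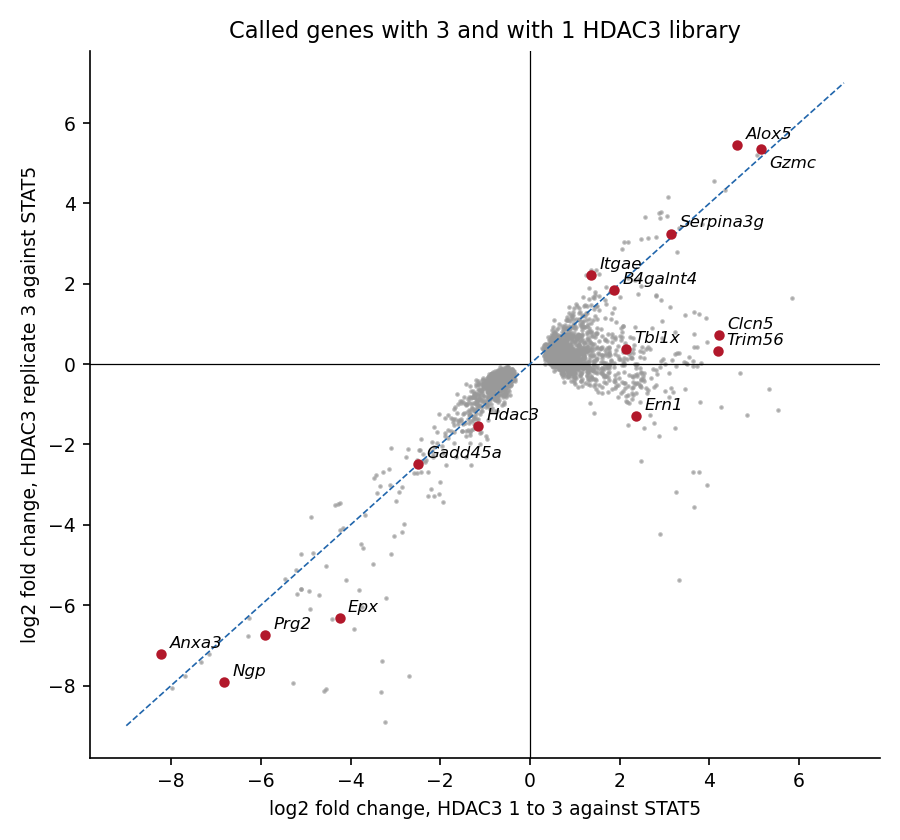
Log2 fold changes of the 2131 called genes, with the 3 HDAC3 libraries against the STAT5 arm on the horizontal axis and HDAC3 replicate 3 alone on the vertical axis; the dashed line marks equal values and red points are named genes. Lower genes such as Prg2 (-5.90 and -6.74) lie near the line, while many higher genes such as Trim56 (4.18 and 0.32) lie far below it.

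Of 36 ribosome biogenesis genes 14 were higher (38.9%, beside 11% of all genes), 13 of these with HDAC3 replicate 3 above all STAT5 libraries. The median log2 fold change was 0.47, and 0.50 in replicate 3. Leaving out HDAC3 replicate 2 or 3 left 10 or 14 called higher, and without replicate 1 the calls ended, with 13 higher at an unadjusted p under 0.05 (edgeR). Rrp12, which helps export ribosomal subunits, was at 68.5, 32.4 and 37.3 CPM in the HDAC3 libraries and at 15.2, 16.8 and 21.1 CPM as lowest, median and highest in the STAT5 libraries (log2 fold change 1.42 ± 0.28 SE, adjusted p = 0.00484). HDAC3 replicate 1 was the highest by far, and the others were still above the STAT5 range. Tsr1, a factor for small-subunit assembly, had a log2 fold change of 1.26 ± 0.25 (SE, adjusted p = 0.0045), Dkc1, the pseudouridine synthase dyskerin, 1.04 ± 0.24 (adjusted p = 0.00846), and the nucleolar helicase gene Ddx21 1.00 ± 0.21 (adjusted p = 0.00626). Npm1, the nucleolar chaperone nucleophosmin, was lower, at 808 to 1316 CPM in the HDAC3 libraries, against 1355 to 2254 CPM in the STAT5 libraries (log2 fold change -0.71 ± 0.24 SE, adjusted p = 0.0421), and was named after its values were seen. It has processed copies in the genome, so its reads are uncertain.

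Of 38 DNA replication and S phase genes 13 were higher (34.2%, beside 11% of all genes), 12 of these with replicate 3 above the STAT5 libraries. Gins4 alone was lower. The median log2 fold change was 0.30, and 0.51 in replicate 3, and leaving out HDAC3 replicate 1, 2 or 3 gave 4, 6 or 12 called higher. Rrm2, the ribonucleotide reductase subunit that makes deoxynucleotides, was at 290, 351 and 476 CPM in the HDAC3 libraries and at 145, 179 and 267 CPM as lowest, median and highest in the STAT5 libraries (log2 fold change 0.95 ± 0.18 SE, adjusted p = 0.00408). Replicate 3 alone was called, at 1.30 (adjusted p = 0.0354). Mcm2, a subunit of the replicative helicase, was at 330, 284 and 342 CPM in the HDAC3 libraries and at 189 to 237 CPM in the STAT5 libraries (log2 fold change 0.57 ± 0.13 SE, adjusted p = 0.00838). Of 36 mitosis and spindle genes 8 were higher (22.2%), with a median of 0.20, and 0.09 in replicate 3. Without HDAC3 replicate 1, 2 or 3 there were 2, 1 or 11 called higher. Among the 8 were the topoisomerase gene Top2a, at 1220, 1700 and 1330 CPM in the HDAC3 libraries and 652 to 904 CPM in the STAT5 libraries (log2 fold change 0.83 ± 0.17 SE, adjusted p = 0.00563), and the separase gene Espl1 (0.94 ± 0.18 SE, adjusted p = 0.00407).

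Bcl2 was the 1 called gene of 13 in the BCL2 family, at 213, 352 and 258 CPM in the HDAC3 libraries and at 98.0, 126 and 191 CPM as lowest, median and highest in the STAT5 libraries (log2 fold change 1.02 ± 0.20 SE, adjusted p = 0.00501). All HDAC3 libraries were above the STAT5 libraries, and replicate 3 gave 0.93. Among 19 p53 targets, the nuclease gene Aen and the RNA-binding protein gene Zmat3 were higher (log2 fold changes 1.11 and 0.66) and Gadd45a, Fas and Ddit4 were lower (-2.49, -1.19 and -1.18). Of 17 NF-kB subunits and targets Il6 and Nfkb2 were higher (11.8%). The share called higher was 7.69% for the BCL2 family and 10.5% for the p53 targets, of which 15.8% were lower. Over all genes these shares were 11% higher and 6.65% lower. Of 17 FOXO and cytokine-withdrawal genes 3 were higher (Irs2, Foxo3 and Rictor) and 3 lower (S1pr1, Ddit4 and Btg1), 17.6% in each direction. Replicate 3 was outside the STAT5 range for Irs2, S1pr1 and Ddit4.

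Of 32 tested lysosomal genes 13 were lower (40.6%, beside 6.65% of all genes). The list median log2 fold change was -0.58 and came to -0.31 in HDAC3 replicate 3, which was below the STAT5 libraries for 5 of the 13. Leaving out HDAC3 replicate 1, 2 or 3 gave 1, 1 or 22 called lower. Gla, alpha-galactosidase A, was at 15.6, 19.9 and 28.5 CPM in the HDAC3 libraries and at 44.9, 62.0 and 102 CPM as lowest, median and highest in the STAT5 libraries. The groups were apart, with a log2 fold change of -1.63 ± 0.28 (SE, adjusted p = 0.00252) and -1.23 in replicate 3. Hexa, a hexosaminidase subunit, and Ctsa, cathepsin A, had log2 fold changes of -0.99 and -0.96, with replicate 3 within the STAT5 range for each.

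Interferon-response genes gave 6 lower (22.2%) and 1 higher (3.7%) of 27, with a median of -0.47, and -0.31 in replicate 3. The 6 became 1, 1 or 8 without HDAC3 replicate 1, 2 or 3. Irf7, the master regulator of type I interferon genes, was at 8.06, 8.28 and 8.96 CPM in the HDAC3 libraries and at 16.2, 19.4 and 22.2 CPM as lowest, median and highest in the STAT5 libraries (log2 fold change -1.19 ± 0.25 SE, adjusted p = 0.00572). Both groups were tight and did not overlap. The higher gene was Eif2ak2, the double-stranded RNA kinase PKR, at 133, 133 and 42.0 CPM in the HDAC3 libraries and 34.3 to 57.5 CPM in the STAT5 libraries, again high in HDAC3 replicates 1 and 2 and, at 103 and 129 CPM, in no-target replicates 1 and 3.

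In metabolism, 7 of 26 cholesterol and lipid synthesis genes were higher (26.9%) and Pmvk was lower (3.85%). The list's median was 0.29, and 0.19 in replicate 3. With HDAC3 replicate 1 or 3 left out 2 or 9 were called higher, and without replicate 2 the calls ended, with 8 higher at an unadjusted p under 0.05 (edgeR). Srebf2, the master factor of sterol synthesis, was at 242, 328 and 293 CPM in the HDAC3 libraries and at 150 to 218 CPM in the STAT5 libraries (log2 fold change 0.67 ± 0.17 SE, adjusted p = 0.012, and 0.69 in replicate 3). Slc7a11, the cystine transporter, was the 1 called gene of 20 in the integrated stress response, at 5.95, 6.87 and 2.20 CPM in the HDAC3 libraries and at 13.2 to 75.8 CPM in the STAT5 libraries (log2 fold change -2.81 ± 0.63 SE, adjusted p = 0.00827). Of 28 glycolysis and hypoxia genes Vegfa was higher (3.57%) and Gpi1 and Aldoa were lower (7.14%). Of 23 chaperone and unfolded protein genes Ern1 and Hyou1 were higher (8.7%) and Pdia6 was lower (4.35%). The 1 call in the integrated stress response was 5% of that list. Over all genes 11% were higher and 6.65% lower. Ern1, the stress sensor IRE1, was at 203, 120 and 8.79 CPM in the HDAC3 libraries and at 14.4 to 32.1 CPM in the STAT5 libraries, so replicate 3 lay below every STAT5 library while replicates 1 and 2 lay above. Of 11 erythroid and megakaryocyte markers only the transferrin receptor gene Tfrc was called higher (9.09%, beside 11% of all genes). Tfrc was higher by 1.02 ± 0.28 on the log2 scale (SE, adjusted p = 0.0173, edgeR), and no marker of this list was called lower.

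The 80 ribosomal protein genes had a median log2 fold change of -0.62, but 0.04 in replicate 3. Of these 3 were called lower (Rpl24, Rpl36al and Rps20), or 3.75% beside 6.65% of all genes. Many ribosomal protein genes have processed copies, so their reads are uncertain. Without HDAC3 replicate 3, 67 of the 80 were called lower, and without replicate 1 or 2 the calls ended, with 3 or 2 lower at an unadjusted p under 0.05 (edgeR). Rps20 was at 1190, 990 and 1930 CPM in the HDAC3 libraries and at 1890 to 2720 CPM in the STAT5 libraries, with 1000 and 1460 CPM in no-target replicates 1 and 3 and 1890 to 2140 CPM in the others. Of 42 oxidative phosphorylation genes 6 were lower (14.3%), and the median was -0.53, and -0.07 in replicate 3. Without HDAC3 replicate 3, 35 of the 42 were called lower, and without replicate 1 or 2 the calls ended, with 3 or 4 lower at an unadjusted p under 0.05 (edgeR). Of 20 canonical histone genes, whose mRNAs lack the polyA tail that the protocol selects for, 3 were lower (15%). The median of this list was -0.30, and -0.11 in replicate 3.

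**Figure D5:**
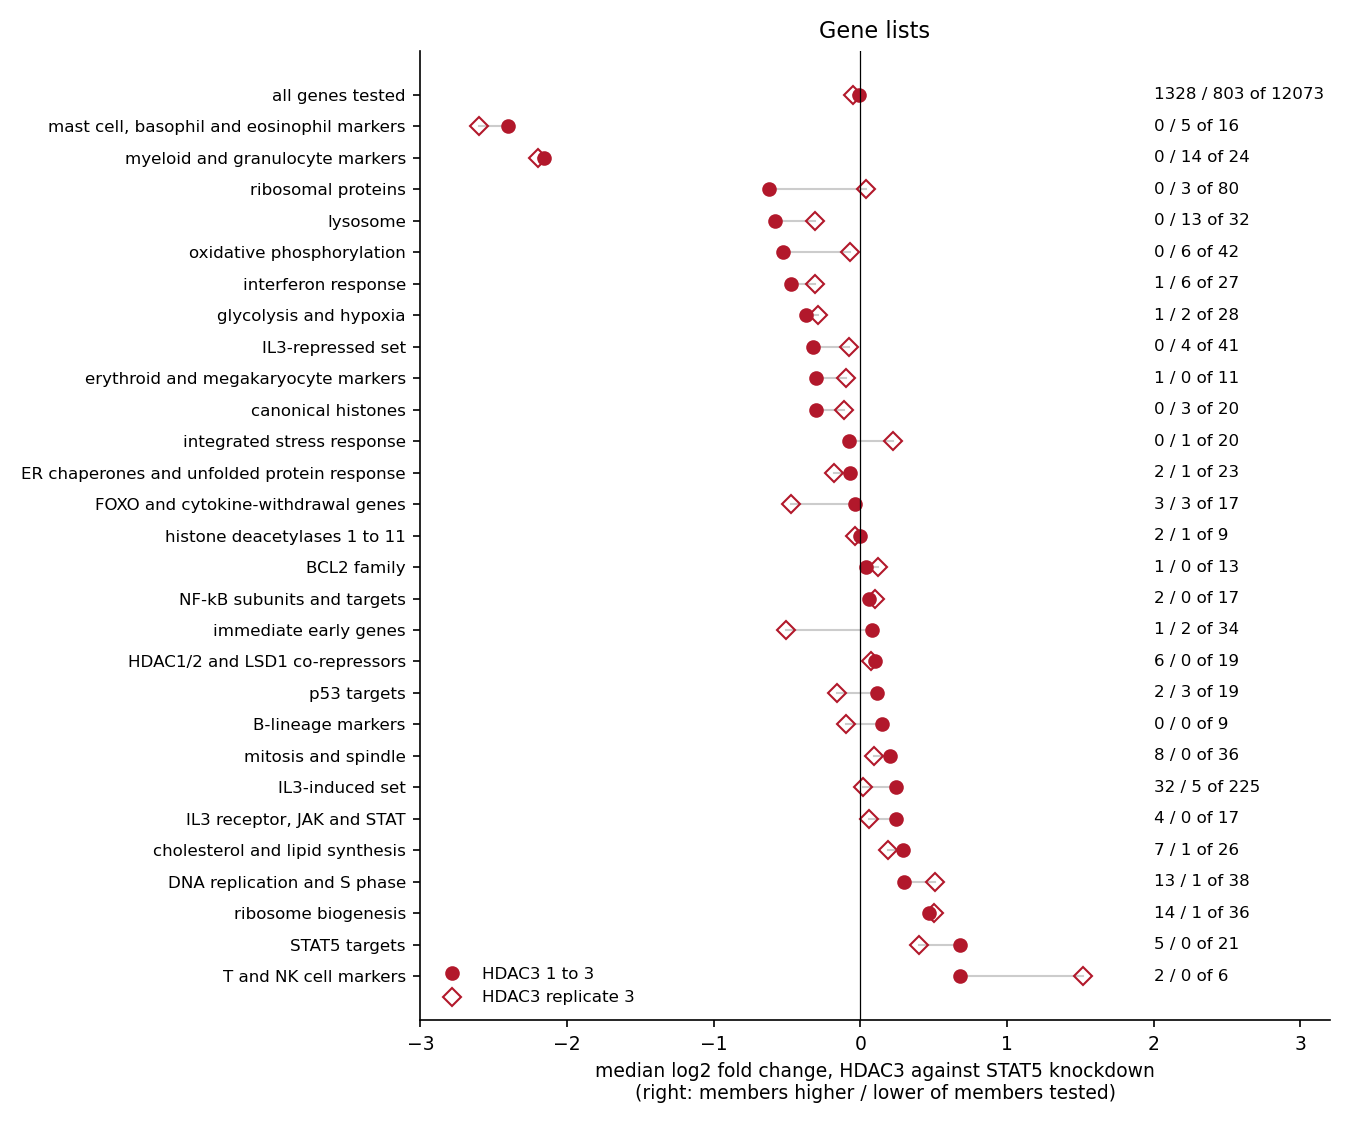
Median log2 fold change of the gene lists, HDAC3 knockdown against the STAT5 knockdowns, with the 3 HDAC3 libraries as filled circles and replicate 3 alone as open diamonds. The figures at the right give members called higher, called lower and tested. The list of the NCoR complex is not drawn (median 0.46, and 0.37 in replicate 3). Granule and myeloid markers keep their median in replicate 3 (-2.16 and -2.20 for myeloid markers), while ribosomal proteins do not (-0.62 and 0.04).

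The STAT5 arm could also be read 1 hairpin at a time. Set against the 3 STAT5A libraries alone, the HDAC3 knockdown gave 239 called genes (1.98% of 12073), 110 higher and 129 lower, and against the 3 STAT5B libraries alone it gave 979 (8.11%), 525 higher and 454 lower. A call in 1 of these comparisons and not in the other does not show that the hairpins differed for that gene.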

How the data were processed

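RNA of 27 libraries of the Ba/F3 line was sequenced after polyA selection with the TruSeq RNA v2 kit, per the labels' protocols. The values are raw read counts per gene as deposited by the authors, in 1 table per library. The submitters' processing notes name Trimmomatic 0.30, TopHat2 2.0.10, HTSeq 0.5.4p5, DESeq2 1.2 and mm10, without order or role. The counting mode, its strand setting and the annotation are not given in the sources used here. Reads of overlapping genes can therefore not be told apart, and this touches Stat5a, Cish, Pim1, Uhmk1, Irs2, Ncor1, Hdac4, Hdac7, Jak1, Csrnp1, Bcl2, Gadd45a, Gpi1, Aldoa, Pdia6, Tsr1, Dkc1, Irf7, Eif2ak2, Nfkb2, Hexa, Ctsa, Lat2, Ptgs1, Mpo, Prtn3, Zrsr1, Bhlhe40 and Tnfrsf26, whose exons overlap a transcript on the other strand in GENCODE vM21 (GRCm38), and Xpo4, Ddi2, Anxa3, Slpi, Chd4, Rcor1, Jak3, Top2a, Rpl36al, Rpl24, Rps20, Lck and Vmp1, which overlap one on their own strand.

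The 5 summary lines of each count table were dropped, and they gave the share of reads outside genes. Genes with enough counts in the 7 labelled groups (filterByExpr, 12073 genes) were fitted over all 27 libraries with edgeR 4.0.16 (R 4.3.3, TMM factors, robust quasi-likelihood test), with the 6 STAT5 libraries as 1 arm and a mean for each of the other 5 groups. A gene was called at a Benjamini-Hochberg adjusted p under 0.05. Every adjusted p printed comes from edgeR, apart from the DESeq2 value given for Gzmc. Gene lists are described by counts and medians and were not tested. Depth ran from 5479527 to 22582921 counted reads in the 9 libraries, where 3 reads correspond to 0.142 to 0.528 CPM, and intervals cover counting error only.

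The pooled arm, the gene lists and the rule for named genes were chosen with earlier results of these data known. The rule took the 4 genes targeted in the series, a core set of STAT5 and immediate early genes, the 12 largest rises and 12 largest falls among called genes with a mean of at least 5 CPM in the higher arm and no overlap between the arms, up to 4 called genes per list, and the 6 smallest adjusted p among genes called in every alternative with 3 HDAC3 libraries. Core genes without a described result are not named. Nothing in the labels says that replicates came from separate cultures, so p-values measure the spread between these libraries. Same-numbered libraries did not deviate together in every pair, so the numbers were not used as pairs. No 2 libraries agreed within sampling noise. On simulated counts with 200 genes changed in the 3 against 6 design, 63% of 2-fold and 90% of 4-fold changes were recovered, and with HDAC3 replicate 3 alone 21% and 78%. In the simulated 3 against 6 design 4.38% of the called genes were false, and the false share was larger with HDAC3 replicate 3 alone. Apart from the changed genes, the simulated libraries shared 1 mean per gene. They held no class with many reads outside genes, so these shares do not cover that split of the real libraries. Alternatives covered the normalization, the filter, DESeq2 1.42.0, the libraries in the fit, each STAT5 hairpin alone, a replicate block, each library left out, HDAC3 replicate 3 alone, stricter thresholds and, added after seeing the data, a term for the 5 libraries with over 13% of reads outside genes. Promoters are RefSeq's, and figures were drawn with matplotlib 3.10.9.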

Additional observations from a re-analysis of the deposited data

Results flagged for a closer look

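Between the STAT5A and STAT5B libraries the difference itself was tested, and Stat5a (-1.54 on the log2 scale), Stat5b (1.42) and Vps26b (0.69) passed. The other values below come from single libraries that stood apart from the rest of their group on the log2 CPM scale by Dixon's criterion, which chance meets in about 1 of 20 groups.

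STAT5B replicate 3 stood apart most often. It held 305 CPM of Socs1, against 47.9 to 85.5 CPM in the other 5 STAT5 libraries, and 216 CPM of Socs3, against 41.9 to 58.4 CPM. It also held 24.4 CPM of Syne3 (8 to 11.9 CPM in the others), 437 CPM of Ctsa (171 to 235 CPM), 4.92 CPM of Rcor1 (11.5 to 15.2 CPM), 55.9 CPM of Ptpn11 (79.4 to 92.3 CPM) and 8.04 CPM of Fas (29.3 to 56.1 CPM). STAT5A replicate 1 held 0.592 CPM of Lta, against 0.165 to 0.252 CPM in the others, and STAT5A replicate 3 held 112 CPM of Hyou1, against 89.9 to 97.2 CPM.

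Among the no-target libraries, replicate 1 held 169 CPM of Dkc1 (74.7 to 94.4 CPM in the other 4), 134 CPM of Ptgs1 (191 to 206 CPM) and 102 CPM of Vps26b (111 to 114 CPM). No-target replicate 2 held 301 CPM of Pdia6 (227 to 240 CPM) and 125 CPM of Cebpe (50 to 63.2 CPM). No-target replicate 3 held 36.6 CPM of S1pr1 (17 to 20.7 CPM), and replicate 5 held 0.144 CPM of Gzmc, which was at 0 in the other 4.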

How the results depend on the processing

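The count of called genes (2131, of which 1328 were higher and 803 lower) depended on the libraries used. Leaving out 1 of the 9 libraries at a time gave 232 to 4762 called genes, the extremes coming without HDAC3 replicate 1 and without HDAC3 replicate 3. HDAC3 replicate 3 alone gave 19, and against the 4 STAT5 libraries with a usual share of multi-mapped reads it gave 7. A term for the libraries with many reads outside genes, chosen after seeing the data, gave 116, of which 99 were among the 2131. Other counts were 1134 with no filter on low counts, 1070 with the 9 compared libraries only (812 higher and 258 lower), 239 against STAT5A alone, 979 against STAT5B alone, 327 at an adjusted p under 0.01 and 823 where the log2 change was also 1 or more in either direction. DESeq2 gave 2745, RLE factors 2159 and separate STAT5A and STAT5B means 1998. With DESeq2 Gzmc lost its call and Elane, Ctsg and Myc gained one.

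With the replicate number as a block, 2233 genes were called, 1195 higher and 1038 lower. Same-numbered libraries correlated at -0.258 to 0.515, and 4 of 9 libraries correlated best with their own number, so the numbers are not taken as pairs. The block ended the calls of Ern1, Gm1123, Hyou1, Mpo and Ncor1 and added Elane.

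Directions of named genes reversed mainly where HDAC3 replicates 1 and 2 were dropped or their class was fitted. In HDAC3 replicate 3 alone the log2 fold changes were -1.64 for Fos, -1.29 for Ern1, -1.20 for Egr2, -0.19 for Rcor1, -0.17 for Ptprc, -0.12 for Rictor, -0.08 for Eif2ak2 and Foxo3, -0.07 for Ncor1 and 0.54 for Cd79a. Against the 4 STAT5 libraries they were -1.20 for Fos, -1.10 for Ern1, -1.06 for Egr2, -0.01 for Rcor1, -0.27 for Ptprc, -0.17 for Rictor, -0.19 for Eif2ak2, -0.04 for Foxo3, -0.07 for Ncor1, -0.05 for Csrnp1 and 0.50 for Cd79a. With the class term they were -0.73 for Ern1, -0.13 for Egr2, -0.07 for Rcor1, -0.18 for Ptprc, -0.02 for Foxo3, -0.04 for Ncor1 and 0.42 for Cd79a. With single libraries left out, Cd79a ranged from -0.76 to 0.04, Ptprc from -0.10 to 0.28 and Lck from -0.42 to 0.37. Single changes were -0.01 for Kdm1a with no filter and 0 against STAT5B alone, -0.12 for Stat5a against STAT5B alone, and -0.09 for Vps26b against STAT5A alone. The causes were not tested. The IL3-induced median of 0.24 became 0.26 with RLE factors and the IL3-repressed median of -0.32 became -0.29 with blocked wild-type sets.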
